A study of Mus musculus with 7 samples.

Results

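The 10 genes described here mark rare non-neuronal cells of the olfactory epithelium: tuft-like microvillar cells, represented by Pou2f3, Trpm5, Gnat3, Il25 and Chat, and ionocyte-like cells, represented by Ascl3, Foxi1, Cftr, Coch and Atp6v1b1. They were chosen by name, with earlier results of these data known, and taken by gene symbol. All 10 were among the 50600 genes of the count table. Of them, 7 had enough reads to be tested (a minimum of about 10 counts in enough libraries), namely Pou2f3, Trpm5 and the 5 ionocyte-like genes. Gnat3, Il25 and Chat had at most 7 counts in any library and were below that filter.

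Poly(A) RNA of the whole olfactory epithelium, where odours are sensed, was sequenced at postnatal day 7 in 7 mouse libraries. One genotype was Amigo1+/+ (WT, 1 library), the others were Amigo1-/- (KO, 3 libraries) and Amigo1neo/neo (neo, 3 libraries). Neo animals carry a neomycin cassette where the Amigo1 coding sequence was, so KO and neo both lack that sequence, and neo was compared with KO to ask what differs between the 2 alleles. Amigo1, which encodes a neuronal cell adhesion protein, had 744 counts in WT, 0 to 16 in KO and 1 to 11 in neo, where a count of 0 allows up to 3 counts.

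Tuft cells are chemosensory epithelial cells with an apical tuft of microvilli. They depend on the transcription factor Pou2f3, use a taste-type cascade in which a G protein leads to calcium release and opening of the cation channel Trpm5, and can release acetylcholine, interleukin 25 and lipid mediators. Ionocytes are rare cells that move chloride, protons and bicarbonate, and are defined by the forkhead factor Foxi1, the channel Cftr and a vacuolar proton pump (V-ATPase). In the nose, Trpm5-positive microvillar cells and Ascl3-positive cells form separate populations among the supporting cells.

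Gene counts totalled 14879415 to 21343058 per library. Omp, the marker of mature olfactory neurons, stood at 522 to 701 TPM (a level scaled by transcript length and library), and Cyp2g1, of supporting cells, at 715 to 1175 TPM, so markers of the labelled tissue were present. Xist and Ddx3y transcripts marked WT and neo replicate 1 as female and the other 5 libraries as male, so in KO against WT the genotype and the sex cannot be told apart. The sample names of WT and KO carry one code and date-like number and those of neo another. The labels do not explain them, and their part cannot be told apart from that of the genotype. Whether each library had an animal of its own is not stated. By its sex, neo replicate 1 did not share an animal with the male neo libraries. Among libraries of the same genotype and sex, the spread that the p-values here reflect may be technical. In whole tissue, fewer cells of a type and less RNA per cell cannot be told apart. Libraries also differed in genes of other tissue. Gland genes summed to 9220 TPM in neo replicate 1 against 41800 to 76200 TPM in the other neo and the KO libraries. That gap came mainly from Bpifb9b, at 207 TPM in neo replicate 1 against 31207 to 68237 TPM in those libraries. Bpifa1 and Bpifb4 were not low in neo replicate 1 (5909 and 1710 TPM), so the sum does not show less gland tissue there. Squamous epithelium genes summed to 108 TPM in KO replicate 3 against 38.1 to 73.4 TPM in the other KO and neo libraries. That gap came mainly from Sprr1a, at 67.2 TPM in KO replicate 3 against 6.22 to 20.66 TPM in those libraries. Sbsn was also highest in KO replicate 3 (9.38 TPM). Krt4 and Calml3 were the lowest of KO there (3.27 and 6.53 TPM), so the sum does not show more squamous tissue.

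Ionocyte-like genes were far more abundant than tuft-like genes in every library, as the plot of levels by gene shows. Mean TPM over the 7 libraries ran in the order Coch (86.1), Atp6v1b1 (68.5), Ascl3 (27.5), Foxi1 (15.1), Cftr (5.61), Pou2f3 (2.53), Trpm5 (1.43), Gnat3 (0.241), Il25 (0.107) and Chat (0.0400). Coch, which encodes the secreted protein cochlin, was above 92.7% of the 19123 genes tested over all libraries, and Trpm5 above 19.9%. Neighbours in that order were separated in all 7 libraries down to Gnat3, but the ranges of Coch and Atp6v1b1 overlapped, as did those of Pou2f3 and Trpm5. Gnat3, Il25 and Chat could not be ordered beyond their spread.

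**Figure D1:**
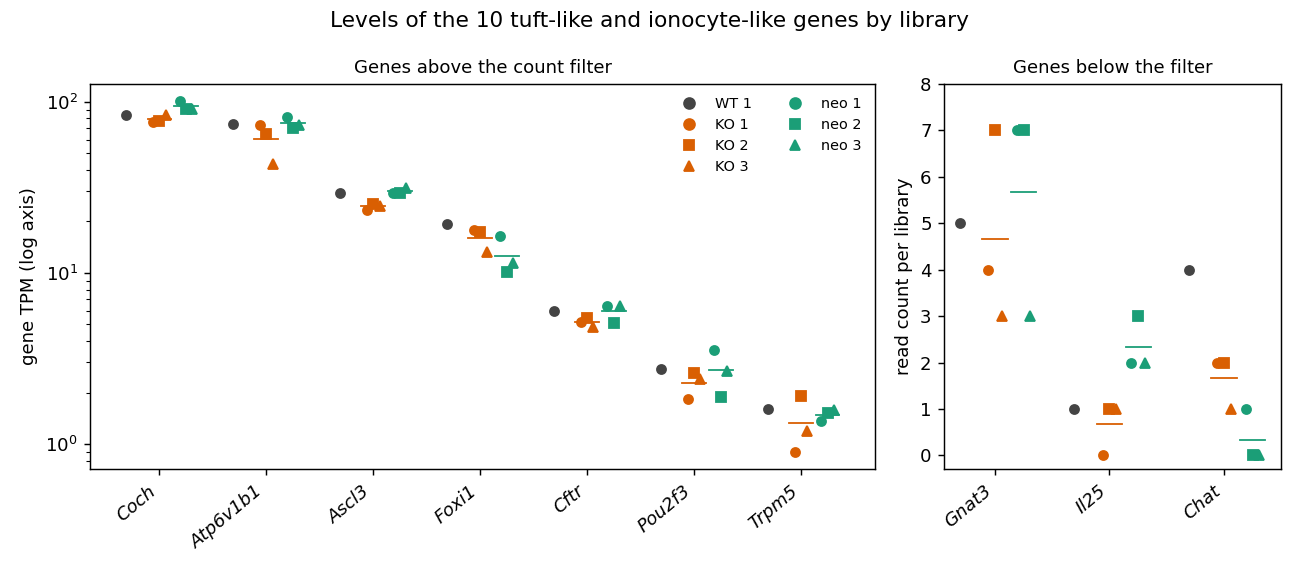
Left, gene TPM on a log axis for the 7 genes above the count filter; right, read counts of the 3 genes below it. Points are libraries (WT grey, KO orange, neo green; symbols give the replicate number) and lines are means of KO and neo. The 5 ionocyte-like genes lie above Pou2f3 and Trpm5 in every library, and Foxi1 is the gene above the filter whose neo mean lies below its KO mean.

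The bases before the start of the factors Foxi1 and Ascl3, and of Atp6v1b1, a V-ATPase gene known to respond to forkhead factors, are given from RefSeq to show which factor motifs they hold. Windows of 250 bases before the start were searched on both strands for GTAAACA (the core bound by forkhead factors), ATGCAAAT (the octamer of POU factors) and CAGCTG (an E-box form bound by basic helix-loop-helix factors, the class of Ascl3); none of these motifs overlaps another in the windows shown. Of 8 of the 10 genes with an entry, Atp6v1b1 held the forkhead core, on the minus strand and starting 98 bases before the RefSeq start, and Chat the E-box. The forkhead core was in 3.17% of 32851 such windows, the octamer in 1.6% and the E-box in 13.0%. A match describes the letters only. Capitals mark the match, read 5′ to 3′ along the gene's strand, and bases inside an annotated exon are left out.
Foxi1 (GRCm38.p6 chr11:34208090-34208339, minus strand): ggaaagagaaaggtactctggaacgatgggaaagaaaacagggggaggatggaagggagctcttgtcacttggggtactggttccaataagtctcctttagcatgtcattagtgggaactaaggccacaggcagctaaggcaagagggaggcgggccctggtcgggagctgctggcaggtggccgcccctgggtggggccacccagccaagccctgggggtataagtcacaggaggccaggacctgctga
Ascl3 (GRCm38.p6 chr7:109731733-109731982, minus strand): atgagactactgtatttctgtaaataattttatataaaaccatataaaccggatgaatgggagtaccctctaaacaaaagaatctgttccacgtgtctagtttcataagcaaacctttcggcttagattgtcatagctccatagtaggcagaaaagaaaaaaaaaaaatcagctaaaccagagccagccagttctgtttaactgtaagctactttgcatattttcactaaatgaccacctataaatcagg
Atp6v1b1 (GRCm38.p6 chr6:83742767-83742989, plus strand): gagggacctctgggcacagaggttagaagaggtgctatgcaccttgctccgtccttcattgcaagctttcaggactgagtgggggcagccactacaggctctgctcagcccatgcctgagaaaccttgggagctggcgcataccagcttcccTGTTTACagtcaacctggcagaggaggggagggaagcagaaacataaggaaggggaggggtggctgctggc

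The tuft-like genes were not separated between KO and neo by more than the spread of the libraries. Pou2f3, the transcription factor that tuft cells require (GRCm38 chromosome 9, 43123939 to 43210369, minus strand), stood at 3.37, 4.61 and 4.48 CPM (read counts scaled to library size, with TMM factors) in KO replicates 1 to 3. It stood at 5.28, 4.19 and 4.66 CPM in neo replicates 1 to 3 and at 4.74 CPM in WT. KO replicate 1 was the lowest library and neo replicate 1 the highest, and the KO and neo ranges overlapped. The fitted difference, neo minus KO, was 0.18 (log2, SE 0.21, adjusted p = 0.838, edgeR).

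Trpm5, the calcium-activated cation channel at the end of the cascade (chromosome 7, 143069153 to 143094642, minus strand), gave 39, 75 and 50 counts in KO, 71, 62 and 54 in neo and 86 in WT. In CPM these were 2.39, 4.02 and 2.76 in KO, 3.02, 3.71 and 3.59 in neo and 3.96 in WT. The 3 neo libraries lay inside the KO range. Neo minus KO was 0.16 (log2, SE 0.25, adjusted p = 0.886, edgeR), and the ratio of pooled counts was 1.10 (95% counting interval 0.883 to 1.36). With counting error alone giving a coefficient of variation of 13.5% per KO library, the KO spread of 28.0% in CPM was the widest of the tested tuft-like values.

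Gnat3, gustducin, the G protein alpha subunit of taste cells (chromosome 5, 17962549 to 18019834, plus strand), gave 5 counts in WT, 4, 7 and 3 in KO and 7, 7 and 3 in neo. The KO and neo counts covered the same range, and the pooled ratio of neo to KO was 1.17 (95% counting interval 0.541 to 2.56). In neo replicate 3 Gnat3 was listed at 0 TPM although the count table gave it 3 reads, so at this depth the 2 kinds of value part. Il25, the cytokine by which intestinal tuft cells signal to innate lymphoid cells (chromosome 14, 54932695 to 54935837, plus strand), gave 1 count in WT, 0, 1 and 1 in KO and 2, 3 and 2 in neo. Every neo library was above every KO library in counts, but by 1 to 3 counts. Of all tested genes, 7.59% were higher in neo with no overlap in CPM. By TPM neo replicate 1 equalled KO replicates 2 and 3, at 0.08. The pooled ratio of 3.36 had a counting interval of 0.640 to 33.2. In fits without a count filter, Gnat3 and Il25 had adjusted p-values of 0.957 and 0.784 (edgeR).

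Chat, choline acetyltransferase, which makes acetylcholine (chromosome 14, 32408203 to 32465909, minus strand), had 4 counts in WT, 2, 2 and 1 in KO and 1, 0 and 0 in neo. KO and neo met at 1 count, and the pooled ratio of neo to KO was 0.192 with a counting interval of 0.00406 to 1.72 (adjusted p = 0.784 without a count filter, edgeR). Against WT the pooled ratio of neo was 0.0984 (95% counting interval 0.00200 to 0.994), from 1 count in 3 libraries against 4 counts in 1, with an adjusted p of 1 without a count filter (edgeR). Slc18a3, the vesicular acetylcholine transporter, lies inside the Chat gene on the same strand (32462438 to 32464850) and had 0.420 TPM in WT and was listed at 0 in the other 6 libraries. The high-affinity choline transporter Slc5a7 stood at 0.530 TPM in WT and at 0.0300 to 0.210 TPM elsewhere. Of the markers of autonomic neurons, another cholinergic cell type, some showed the same library apart and others did not. Hand2 stood at 1.10 TPM in WT and was listed at 0 in all others, and Vip at 14.1 TPM in WT and at most 0.760 TPM elsewhere. Gal stood at 1.10 TPM in WT but at 1.21 in KO replicate 3. Th stood at 0.28 TPM in WT but at 0.44 in neo replicate 3. The 12 autonomic genes summed to 63.0 TPM in WT, 26.8 to 39.9 in KO and 24.7 to 34.9 in neo. Prph was the largest part of each sum, at 37.38 TPM in WT against 33.66 in KO replicate 3. The part of autonomic neurons in the Chat counts was not tested.

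Among the ionocyte-like genes, Ascl3, Cftr, Coch and Atp6v1b1 had fitted differences of 0.09 to 0.22 (log2) between neo and KO, each with overlapping libraries, while Foxi1 was lower in the 3 neo libraries without passing the test over all genes. None of the 7 tested genes was called in neo against KO by edgeR, where 0.0170% of 17638 genes were called. At an unadjusted p under 0.05 there was 1, Foxi1, where 9.32% of all genes tested reached that level and 4.72% did so as lower in neo. DESeq2 (0.539% of all genes called) and limma on TPM (0.00529% called with either pseudocount) also called 0 of the 7, with 1 and 0 at an unadjusted p under 0.05.

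**Figure D2:**
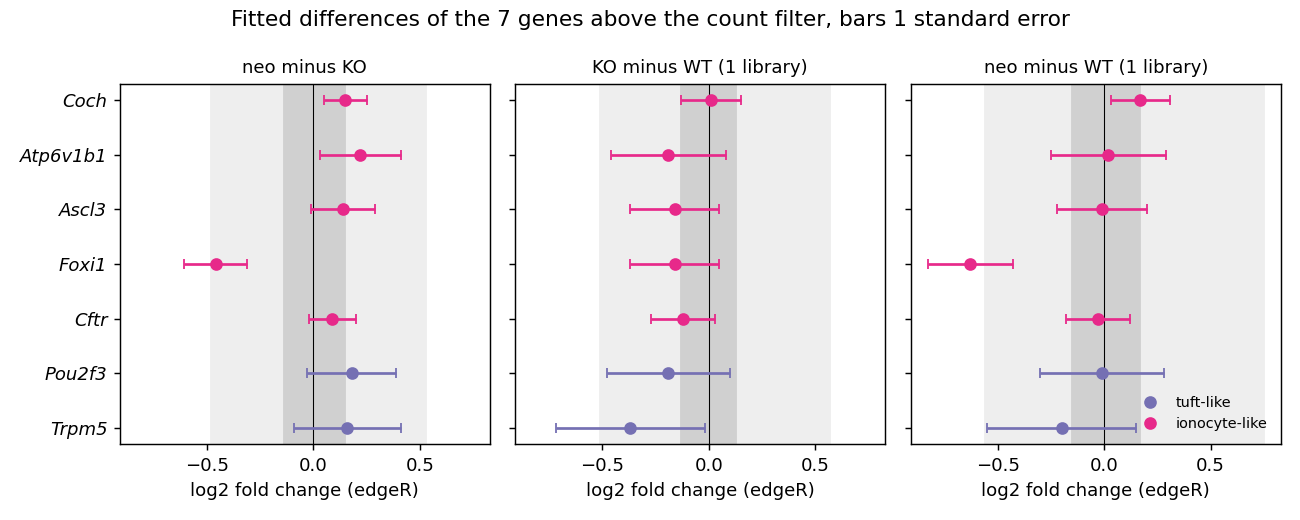
Fitted log2 fold changes (points) with 1 standard error (bars) for the 7 genes above the count filter in 3 comparisons; both comparisons with WT share its 1 library. Dark and light grey bands span the middle 50% and 90% of all genes tested, and a line marks 0. Foxi1 lies at -0.46 in neo minus KO, near the lower edge of the light band at -0.48, and the other 6 genes lie between 0.09 and 0.22.

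Ascl3, the basic helix-loop-helix factor that marks this lineage in the nose (chromosome 7, 109727465 to 109731726, minus strand), stood at 11.8, 12.8 and 12.9 CPM in KO. It stood at 11.6, 15.3 and 14.4 CPM in neo and at 13.9 CPM in WT. Neo replicate 1 was the lowest library of all, so the groups overlapped. Neo minus KO was 0.14 (log2, SE 0.15, adjusted p = 0.816, edgeR). By TPM, Ascl3 was 23.4, 25.4 and 24.6 in KO and 29.4, 29.2 and 31.5 in neo, with no overlap. The median of all genes also lay 0.10 higher in neo on the log2(TPM + 0.1) scale, with 67.4% of genes positive against 49.6% after TMM. Relative to that shift Ascl3 was 0.20 higher. Ascl3 and Coch were the 2 of 7 genes higher in neo with no overlap by TPM, a comparison added after the data were seen, beside 9.39% of all genes that were higher and 2.20% that were lower in that way.

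Cftr, the chloride channel mutated in cystic fibrosis (chromosome 6, 18170687 to 18322768, plus strand), stood at 24.0, 23.5 and 21.7 CPM in KO. It stood at 23.5, 24.7 and 25.6 CPM in neo and at 25.1 CPM in WT. The 7 libraries lay close together and the groups overlapped. Neo minus KO was 0.09 (log2, SE 0.11, adjusted p = 0.832, edgeR), with a pooled ratio of 1.06 (95% counting interval 0.982 to 1.15).

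Coch (chromosome 12, 51593341 to 51605771, plus strand) stood at 138, 134 and 153 CPM in KO, 147, 175 and 149 in neo and 140 in WT. The groups overlapped through KO replicate 3. Neo minus KO was 0.15 (log2, SE 0.10, adjusted p = 0.682, edgeR). Of its 4 annotated transcripts, ENSMUST00000085412.6 carried 66.6% of the gene's mean TPM and ENSMUST00000164782.9 carried 32.8%. The share of the second ran from 25.4% to 46.7% over libraries and was highest in WT, and its level was 22.6 ± 4.75 TPM in the KO libraries and 30.5 ± 4.90 TPM in the neo libraries (SD, n = 3).

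Atp6v1b1, the B1 subunit of the V-ATPase, found in acid-secreting cells of the kidney, inner ear and epididymis (chromosome 6, 83742990 to 83758855, plus strand), stood at 105, 85.3 and 58.1 CPM in KO. It stood at 92.9, 101 and 94.0 CPM in neo and at 94.6 CPM in WT. KO replicate 3 was low, at 70.2% of the KO mean, and the KO range enclosed the neo range. Neo minus KO was 0.22 (log2, SE 0.19, adjusted p = 0.774, edgeR). It was 0.02 without KO replicate 3 and 0.42 without KO replicate 1 (SE 0.16, unadjusted p = 0.0331, adjusted p = 0.597, edgeR), where Atp6v1b1 was the 1 gene of the 7 with an unadjusted p under 0.05. Atp6v1b1 was thus the tested ionocyte-like gene with the widest KO spread, 28.4% in CPM, where counting error alone gives 2.62%.

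Foxi1, the forkhead factor that drives V-ATPase and anion exchanger genes in ionocytes and intercalated cells (chromosome 11, 34204338 to 34208089, minus strand), gave 498, 522 and 410 counts in KO, 528, 310 and 267 in neo and 659 in WT. In CPM it stood at 30.5, 28.0 and 22.7 in KO. It stood at 22.5, 18.5 and 17.8 CPM in neo and at 30.3 CPM in WT. All neo libraries were below all KO libraries, but KO replicate 3 and neo replicate 1 almost touched. Neo minus KO was -0.46 (log2, SE 0.15, unadjusted p = 0.0137, adjusted p = 0.487, edgeR). It was lower in 3 of 3 neo libraries than in any KO library, and the pooled ratio was 0.742 (95% counting interval 0.686 to 0.804). Foxi1 was the 1 of 7 tested genes with no overlap in CPM, a share near that of all genes, beside 15.6% of all genes in either direction (7.98% lower and 7.59% higher in neo). By TPM the groups overlapped, since neo replicate 1 at 16.4 TPM was above KO replicate 3 at 13.2.

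Over 14 alternative settings the Foxi1 difference lay between -0.57 and -0.34, with adjusted p-values of 0.185 to 0.902. It was -0.57 without neo replicate 1, the female neo library, so that only male libraries were compared (adjusted p = 0.185, edgeR), and -0.57 without KO replicate 3 (adjusted p = 0.529, edgeR). Leaving out KO replicate 1, KO replicate 2 or neo replicate 3 gave -0.37, -0.43 and -0.39, and in each of these the unadjusted p was above 0.05 (0.0580, 0.0510 and 0.0565, edgeR). With limma on TPM it was also above 0.05 (0.123 and 0.128 with pseudocounts of 0.1 and 1). In the authors' deposited table, which gives KO over neo, Foxi1 had a log2 fold change of 0.46 with a standard error of 0.18, p = 0.00934 and adjusted p = 0.356 by DESeq2. In the authors' deposited table the other 6 tested genes had adjusted p-values of 0.947 to 0.999 by DESeq2, and 0.429% of all genes with an adjusted p were called.

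Within a library, the ratio of Foxi1 counts to those of another ionocyte-like gene does not depend on scaling between libraries. These ratios were computed after the data were seen and are given with no test. They reuse the same Foxi1 counts, so they are not independent of the CPM values. The share of such ratios without overlap over all genes was not computed. Foxi1 counts per Cftr count were 1.27, 1.19 and 1.05 in KO, 0.957, 0.751 and 0.694 in neo and 1.21 in WT, with no overlap between KO and neo. Per Atp6v1b1 count they were 0.290, 0.328 and 0.390 in KO, 0.242, 0.183 and 0.189 in neo and 0.321 in WT, again with no overlap. Per Ascl3 count they were 2.59, 2.19 and 1.76 in KO and 1.93, 1.21 and 1.23 in neo, and there neo replicate 1 lay inside the KO range. Per Coch count KO spanned 0.148 to 0.221 and neo 0.106 to 0.153, which overlapped.

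**Figure D3:**
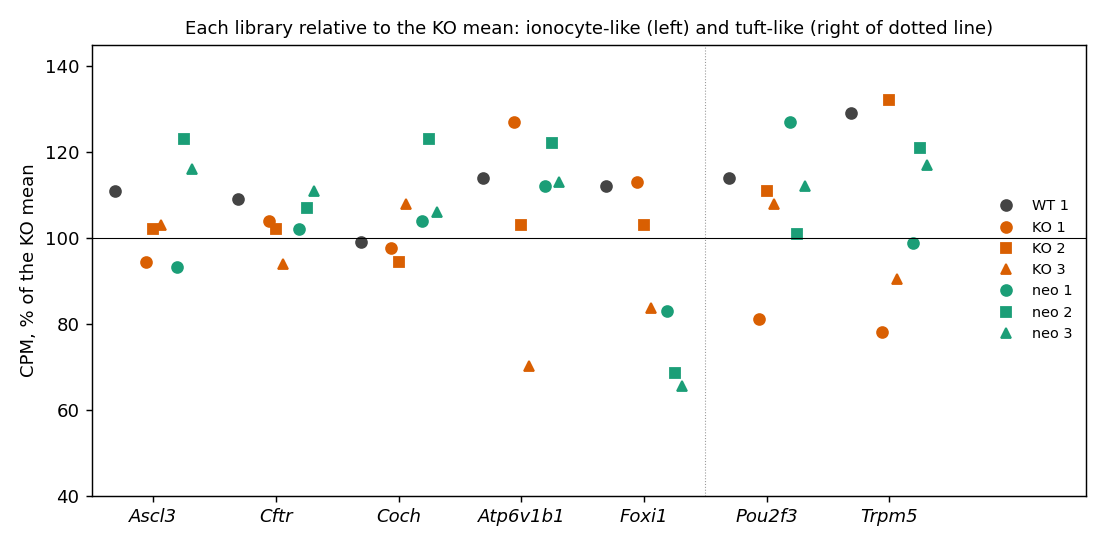
CPM of each library as a percentage of the KO mean of the same gene (line at 100%), for the 5 ionocyte-like genes and, right of the dotted line, Pou2f3 and Trpm5; colours are genotypes and symbols replicate numbers. For Foxi1 the neo libraries lie below every KO library, and KO replicate 3 is low for Foxi1 (83.8%) and Atp6v1b1 (70.2%).

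The balance of the 2 sets overlapped between KO and neo, and its difference depended on the scale. Ascl3, Foxi1 and Cftr together summed to 54.5 TPM in WT, 46.3, 48.2 and 42.6 in KO and 52.1, 44.3 and 49.4 in neo. Trpm5 and Pou2f3 together summed to 4.36 TPM in WT, 2.74, 4.49 and 3.58 in KO and 4.92, 3.39 and 4.25 in neo. The ionocyte-like sum was 12.5-fold the tuft-like sum in WT, 13.2 ± 3.29-fold in KO and 11.8 ± 1.26-fold in neo (SD, n = 3 each). KO replicate 1, where both tuft-like genes were low, gave the highest ratio. On the log2 scale the tuft-like over ionocyte-like balance was -3.69 ± 0.35 over the KO libraries and -3.55 ± 0.15 over the neo libraries (SD, n = 3), and neo minus KO was 0.14, beside a pooled SD of 0.27. It was 0.30 with TMM-scaled CPM in place of TPM, 0.01 with all 5 genes of each set and -0.05 without KO replicate 1.

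**Figure D4:**
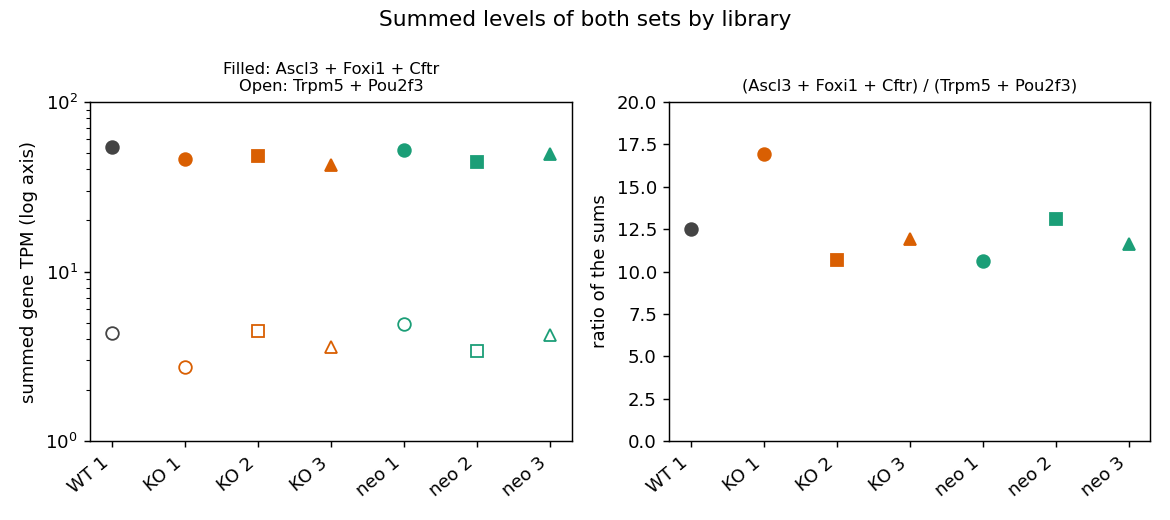
Left, summed TPM on a log axis of Ascl3, Foxi1 and Cftr (filled) and of Trpm5 and Pou2f3 (open) in each library; right, the ratio of the 2 sums. The ratio is highest in KO replicate 1, and the WT and neo values lie within the KO range except for neo replicate 1, just below it.

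Further genes of these cell types came from lists chosen by function. No listed gene was called in neo against KO (edgeR), where 0.0170% of all genes were, and the counts of positive values below stand beside 49.6% positive and a median of 0 over all genes. Of 16 genes of the taste-type cascade, 5 were tested, all positive (median log2 difference 0.10, Plcb2 at 0.01), and 4 others had no reads in any library. On the log2(TPM + 0.1) scale, where all genes shifted by 0.10, 4 of the 5 were positive with a median of 0.20. The 5 were led in level by Gng13, a G protein gamma subunit that olfactory neurons also use, at a mean of 710 TPM (difference 0.14, adjusted p = 0.746, edgeR). Itpr3, the calcium release channel next in the cascade, stood at 5.28 TPM (0.10, adjusted p = 0.941, edgeR).

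Of 23 symbols of tuft cell identity, some of them alternative names of 1 gene, 19 were found and 16 tested, with 10 positive and a median of 0.20. Defining tuft markers were low here: Gfi1b stood at 0.231 TPM, Plcb2 at 0.737 and Avil at 1.16 on average, while Dclk1 (44.1 TPM), Krt18 (413 TPM) and Nrep (213 TPM) are not limited to tuft cells. Sh2d6, an adaptor gene of tuft cells, stood at 2.97, 1.29 and 2.28 TPM in KO and at 4.84, 2.68 and 4.96 in neo (difference 0.99, SE 0.35, unadjusted p = 0.0195, adjusted p = 0.498, edgeR). KO replicate 1 overlapped the neo range. Siglecf, a lectin of eosinophils as well as tuft cells, differed by 1.22 (SE 0.50, unadjusted p = 0.0378, adjusted p = 0.518, edgeR). These 2 of 16 at an unadjusted p under 0.05, both higher, stand beside 4.59% of all genes that were higher at that level.

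Of 8 genes of tuft cell products, 6 were tested, 4 of them positive (median 0.22). Ltc4s, which makes leukotriene C4, did not overlap between KO (0.600, 0.620 and 1.29 TPM) and neo (2.49, 2.07 and 1.77 TPM), beside 9.39% of all genes higher in that way. Its difference was 0.99 (SE 0.44, adjusted p = 0.536, edgeR). Alox5ap, its partner upstream, differed by 0.44 (adjusted p = 0.742, edgeR). Ptges, a prostaglandin E synthase and the most abundant of the list (14.8 TPM on average in KO and 13.4 in neo), differed by -0.10 (adjusted p = 0.910, edgeR). Leukocytes express Ltc4s, Alox5ap and Siglecf too, and 12 leukocyte genes summed to 73.5 to 106 TPM in KO and 98.7 to 136 in neo (median difference 0.61 over 7 tested). Their part in these values was not tested. Of 4 acetylcholine genes, Ache, the esterase, was the one tested (-0.24, adjusted p = 0.894, edgeR).

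Ionocyte identity genes numbered 14, of which 13 were tested and 9 positive, with a median of 0.13. Foxi1 was the one with an unadjusted p under 0.05, and its paralog Foxi2 stood at 0.07 (adjusted p = 0.957, edgeR). Moxd1, a monooxygenase-like gene, stood at 10.2, 10.6 and 8.60 TPM in KO and 14.2, 10.96 and 12.2 in neo (0.26, SE 0.12, adjusted p = 0.537, edgeR). Its sign was opposite to that of Foxi1, with neither called. Of the 13 tested, 3 including Moxd1 were higher in neo with no overlap in CPM, beside 7.59% of all genes. Lower in that way was 1, Foxi1, beside 7.98%. Of 14 ion transport genes, 11 were tested and 7 positive, with a median of 0.04. Slc26a4, the anion exchanger pendrin, stood at 3.25, 2.89 and 1.99 TPM in KO, 8.99, 4.12 and 5.46 in neo and 3.32 in WT. No neo library overlapped KO or WT. Of all genes, 9.39% were higher in neo than in KO with no overlap by TPM. Against the WT library, 21.8% of all genes were higher in neo with no overlap in CPM. The difference of Slc26a4, neo minus KO, was 1.03 (SE 0.27, unadjusted p = 0.00370, adjusted p = 0.430, edgeR). Slc4a11, a membrane transporter of the SLC4 family, differed by 0.34 (SE 0.15, adjusted p = 0.539, edgeR). The abundant Slc12a2, a sodium, potassium and chloride cotransporter (129 TPM), and Car2, a carbonic anhydrase (71.7 TPM), differed by 0.03 and -0.12 (adjusted p = 0.972 and 0.749, edgeR).

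The V-ATPase subunits had differences of both signs. Of the 5 restricted to certain cell types, 4 were positive (median 0.22), including Atp6v0a4 at 0.23 (adjusted p = 0.660, edgeR) and Atp6v1c2 at 0.04 (adjusted p = 0.966, edgeR). The fifth, Atp6v0d2, stood at 17.2, 14.1 and 23.4 TPM in KO, 15.2, 9.13 and 9.43 in neo and 15.9 in WT. Its difference was -0.84 (SE 0.22, unadjusted p = 0.00478, adjusted p = 0.454, edgeR), with no overlap in CPM, beside 7.98% of all genes lower in that way. Osteoclasts also use Atp6v0d2, and 8 osteoclast genes, listed after the data were seen, summed to 576, 565 and 1120 TPM in KO, 538, 272 and 225 in neo and 559 in WT. All 7 of them that were tested were negative (median -1.10), and their part in the Atp6v0d2 values was not tested.

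Of the 16 widespread V-ATPase subunits, 3 were positive and the median was -0.11 after TMM, but 9 were positive with a median of 0.01 on the log2(TPM + 0.1) scale. Atp6v0a1, a membrane subunit of neurons and other cells, differed by 0.26 (SE 0.08, adjusted p = 0.472, edgeR), and Atp6v1b2, the paralog of Atp6v1b1 used in most cells, by -0.26 (SE 0.09, adjusted p = 0.498, edgeR). The most abundant, Atp6v0c, which forms the proton-carrying ring, had a difference of -1.01 in counts (SE 0.56, adjusted p = 0.637, edgeR), while its TPM were 288 ± 44.2 over the KO and 239 ± 38.5 over the neo libraries (SD, n = 3). Atp6v1g1, next in level at 253 TPM, differed by 0.06 (adjusted p = 0.902, edgeR). Of the 16, 6 were lower in neo with no overlap in CPM, beside 7.98% of all genes, and 1 was higher, beside 7.59%. By TPM the KO and neo ranges of those 6 overlapped, since neo replicate 1 was above the lowest KO library in each. The 2 B subunits thus had opposite signs after TMM, with neither called. By mean TPM Atp6v1b2 (77.8) and Atp6v1b1 (68.5) were at similar levels in this tissue.

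**Figure D5:**
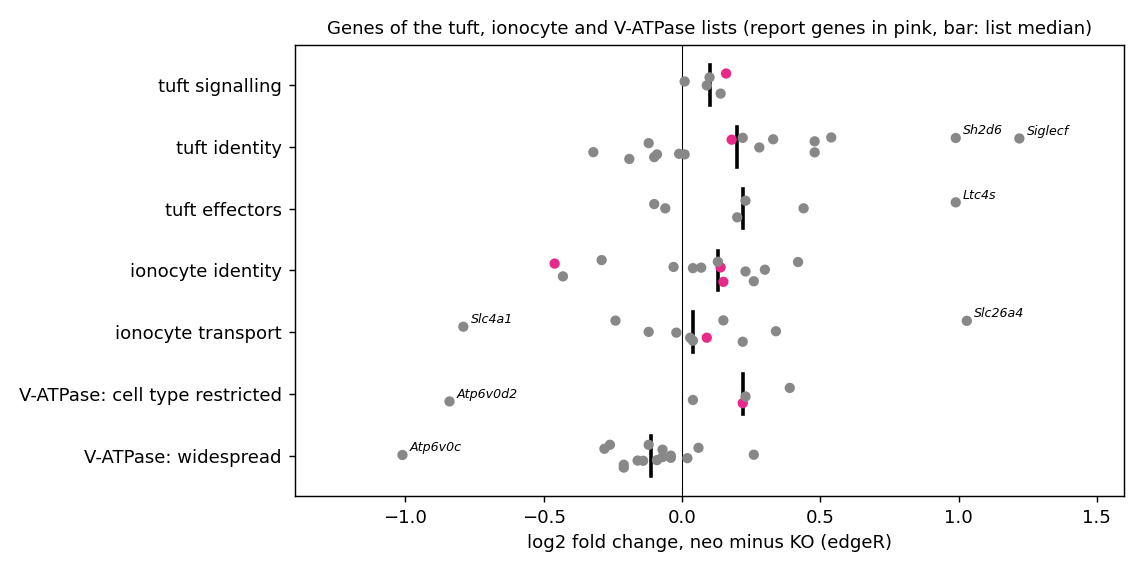
Fitted log2 fold changes, neo minus KO, of the tested genes of 7 lists (grey points, with the genes of the report in pink and list medians as black bars). Genes beyond 0.75 in either direction are named. Most points lie within 0.5 of 0, Slc26a4 lies at 1.03 and Atp6v0d2 at -0.84, and Foxi1 is the leftmost gene of ionocyte identity at -0.46.

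For the other cell types the dissection could hold, median differences, neo minus KO, were -0.21 for autonomic neurons, -0.94 for squamous epithelium, 0.22 for mature olfactory neurons (12 of 12 positive), 0.15 for sustentacular cells, 0.07 for respiratory ciliated cells, 0.29 for glands and 0.06 for the vomeronasal organ. On the log2(TPM + 0.1) scale, where all genes shifted by 0.10, the autonomic median was -0.02 (2 of 4 positive) and the squamous median -0.44. The TMM medians bracket those of the tuft and ionocyte lists. Their part in the values of the 10 genes was not tested.

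Against the 1 WT library, none of the 7 genes was called in KO (edgeR, 0.00523% of 19123 genes called) or in neo (0.0105% called), and adjusted p-values were 1 for all 7 in both comparisons. These comparisons share the WT library, which is assumed to vary like the others. With an unadjusted p under 0.05 were 0 of the 7 in KO, beside 0.727% of all genes, and 1 in neo, beside 2.97% (1.24% higher and 1.72% lower). KO minus WT was -0.37 for Trpm5 and -0.19 for Pou2f3 (log2, SE 0.35 and 0.29). It was -0.16 for Ascl3 and Foxi1, -0.12 for Cftr, 0.01 for Coch and -0.19 for Atp6v1b1, and the last became 0.01 without KO replicate 3. WT lay above all 3 KO libraries in Pou2f3, Ascl3 and Cftr, and inside the KO range in the other 4 genes. One library often falls outside the range of 3: over all genes 40.4% did so here, with KO lower in 20.9% and higher in 19.5%, so 3 of 7 is near that share.

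Neo minus WT was -0.63 for Foxi1 (log2, SE 0.20, unadjusted p = 0.0134, edgeR). The pooled ratio was 0.660 (95% counting interval 0.599 to 0.728). All 3 neo libraries were below WT in Foxi1 and Trpm5 and above it in Coch, 3 of 7 genes beside 43.9% of all genes (22.1% lower and 21.8% higher). It was -0.20 for Trpm5, -0.01 for Pou2f3 and Ascl3, -0.03 for Cftr, 0.17 for Coch and 0.02 for Atp6v1b1. The values near 0 changed sign in some alternatives. Neo replicate 1, the female neo library like the female WT library, stood at 22.5 CPM of Foxi1 against 30.3 in WT.

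Transcript estimates were stable for some of the genes and not for others. Ascl3, Foxi1, Gnat3, Il25 and Chat had 1 transcript each in the deposited transcript table. The main transcript carried 96.8% of the mean TPM of Pou2f3, 95.1% of Cftr and 87.9% of Atp6v1b1. For Trpm5, with 8 transcripts and few reads, the share of ENSMUST00000009390.9 ranged from 5.04% to 72.2% over libraries. Trpm5 also overlaps Tssc4 on the opposite strand, and Cftr overlaps the antisense gene Gm15592 and the pseudogene Gm15595. The name of the count table says that counting used strand, which separates opposite-strand pairs. Reads shared by Cftr and Gm15595, or by Chat and Slc18a3, on the same strand remain uncertain.

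The genes of a set did not share 1 profile over the 7 libraries. Likeness was the root mean square difference of log2(TPM + 0.1) profiles, each centred on its own mean, over 16993 genes. For Ascl3 the closest 5 were Hcn2 (0.0329), Srf, Slc22a17, Smyd2 and Bbs9. Coch ranked 399, Cftr 547, Atp6v1b1 8237, Trpm5 8878, Pou2f3 9502 and Foxi1 14101. For Pou2f3 the closest were Ldb1 (0.0533), 9330151L19Rik, Dlx6, Zcchc18 and St6galnac2. Cftr ranked 3587, Coch 6581, Ascl3 7554, Trpm5 10866, Atp6v1b1 12115 and Foxi1 12354. All of these profiles share the same libraries and depth, and Pou2f3 and Trpm5 carry the counting error of 55 to 124 and 39 to 86 counts.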

How the data were processed

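The authors deposited whole-number read counts and RSEM TPM values per gene and transcript in 7 libraries, per the file headers. The submitters' processing notes name Trimmomatic 0.35, STAR 2.5.1b, RSEM and DESeq2 1.18.1 on GRCm38 (mm10), without roles. A deposited DESeq2 table holds the authors' log2 fold changes and p-values of KO over neo, per the file headers. The 4 summary rows were left out. They held multimapping reads (14.5 to 19.6% of all), reads in no feature (14.2 to 17.4%), ambiguous reads (0.666 to 0.865%) and unmapped reads (3.32 to 4.38%).

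Counts were tested with edgeR 4.0.16 in R 4.3.3 (TMM, filterByExpr with minimum count 10 and total 15, robust quasi-likelihood fit, two-sided, Benjamini-Hochberg over all genes at 0.05). Neo against KO used 6 libraries, and comparisons with WT all 7. Standard errors came from the F statistic. CPM were scaled by TMM over 7 libraries. Pooled count ratios have exact 95% binomial intervals that cover counting error only. Alternatives were RLE size factors, no filter, 50 counts in 3 libraries, DESeq2 1.42.0, limma 3.58.1 on log2(TPM + 0.1) and log2(TPM + 1) for genes whose mean TPM reached 0.5, other sets of libraries, a replicate block and leaving out each library.

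The genes, lists and tests were chosen with earlier results of these data known. Of each tuft, ionocyte, acetylcholine and V-ATPase list, up to 2 genes with the smallest p and the 2 most abundant were named. Gfi1b, Plcb2, Avil, Dclk1, Foxi2, Slc18a3, Hand2, Vip and the other single autonomic, gland and squamous genes were named after their values were seen. Lists of other cell types are given by their medians or sums. Likeness used genes with a mean TPM of 1 or more. Of the gene identifiers, 45737 matched GENCODE vM21 with the same coordinates. Promoter windows came from RefSeq on GRCm38.p6, where Pou2f3 and Il25 had no entry. Replicates differed by more than sampling noise (chi-square over its degrees of freedom 9.58 or more). The largest values were those of neo replicate 1 against neo replicates 2 (122) and 3 (66.2), and the other pairs reached at most 36.2.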

Additional observations from a re-analysis of the deposited data

How the results depend on the processing

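None of the 7 tested genes was called under any of 14 alternatives for neo against KO or 13 for each comparison with WT. Differences between neo and KO kept their sign in all 7 genes under those 14 alternatives, and the count of called genes was 0 when each replicate was left out. Values near 0 against WT reversed as follows, and the cause was not tested. With limma on TPM, Coch in KO minus WT was -0.07 with a pseudocount of 0.1 and -0.07 with 1, and Ascl3 in neo minus WT was 0.04 and 0.03. When each replicate was left out, KO minus WT ranged from -0.04 to 0.05 for Coch and from -0.40 to 0.01 for Atp6v1b1, both reversed without KO replicate 3. Neo minus WT ranged from -0.09 to 0.11 for Ascl3 and -0.06 to 0.02 for Cftr, reversed without neo replicate 1, and from -0.08 to 0.08 for Pou2f3 and -0.01 to 0.06 for Atp6v1b1, reversed without neo replicate 2. Leaving out each replicate moved the log2 balance of tuft-like over ionocyte-like genes, neo minus KO, between -0.05 and 0.27. Deviations from the group mean correlated at -0.097, -0.052 and 0.203 in same-numbered KO and neo libraries. In differently numbered ones the correlations ran from -0.182 to 0.239. The labels do not say whether the numbers pair samples, and 3 such correlations cannot settle it. With the replicate block 0 of the 7 genes was called, and 1 gene in all against 3 without it. Over all genes, neo against KO gave 3 calls, but 98 with DESeq2, 40 without a filter, 1 with the strict filter or limma, and 1 to 17 when a library was left out (17 without neo replicate 1). KO against WT gave 1 call, and 16 with limma on log2(TPM + 1), 6 with WT and KO alone and 4 without neo replicate 1. Neo against WT gave 2 calls, and 17 and 5 with limma on log2(TPM + 1) and log2(TPM + 0.1), 7 without a filter, 6 without neo replicate 1 and 5 without KO replicate 1. At 0 to 7 counts, differences between neo and KO in Gnat3, Il25 and Chat were not detectable at this depth.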
